A study of Mus musculus with 18 samples.

Results

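Activated conventional CD4 T cells (Tconv) of mouse spleen were compared between ∆Foxp3 and WT mice aged 3 weeks, to find which genes differed inside this class of cells, as distinct from what its larger share of the CD4 compartment brings. The class was taken from the authors' deposited annotation: all cells of the class Tconv_activated, with the cells of the NKT cluster left out. It held 1935 of the 13921 cells of the 4 samples and 4386 of the 26652 cells of the series. The ∆Foxp3 samples A and B gave 652 and 517 activated cells, which were 19.8% and 35.9% of their cells. The WT samples A and B gave 391 and 375 activated cells, 7.42% and 9.57% of their cells.

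The ∆Foxp3 mice were males of strain B6 Foxp3DeltaEGFPiCre x ROSA-YFP, in which EGFP and an improved Cre disrupt Foxp3 and a YFP reporter sits at the ROSA locus. The WT mice were males of strain B6 Foxp3-IRES-GFP, whose intact Foxp3 gene is followed by GFP. Live splenic cells positive for TCRβ and CD4 were sorted and each sample was run in its own channel of the 10x Genomics 3′ kit, V2 chemistry, which counts transcripts by unique molecular identifiers (UMIs). The series holds 18 samples in 8 groups. A second experiment with the V3 chemistry also holds whole CD4 cells of ∆Foxp3 mice aged 3 weeks and of WT mice aged 9 weeks, 2 samples each, told apart by hashtag. Those WT mice carried the same GFP allele and also a cross to CD45.1. Functional Foxp3 is missing from every cell of the male ∆Foxp3 mice from birth, so the activated cells came from animals that never had functional regulatory T cells. Whether A and B of a genotype are different mice is not said in the labels, so p-values measure the spread between these samples, which may be technical.

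Foxp3 is the transcription factor that gives regulatory T cells (Treg) their suppressive programme, and males without it develop a fatal lymphoproliferative disease in which conventional T cells are activated in large numbers. A naive CD4 T cell that meets its antigen divides, loses the receptors that guide it through lymph nodes, and takes up an effector programme of cytokines, chemokines and surface receptors. Interferon-γ from such cells and type I interferons act through different complexes of STAT proteins, and the gene sets that follow each of them overlap only in part.

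The activated cells held 2176845 and 1536843 UMIs in the ∆Foxp3 samples and 1209299 and 1148040 UMIs in the WT samples, and the median activated cell held 2918 to 3367 UMIs in all 4. Levels are given as CPM, the UMIs of a gene per 1000000 UMIs of the class in a sample. In such sums, fewer cells with a transcript and less of it per cell cannot be told apart. Of the targeted locus, Foxp3 itself had 6 and 5 UMIs in ∆Foxp3 cells and 2 and 4 UMIs in WT cells, in a class that excludes cells annotated as Treg. Cre had 3 and 5 UMIs in ∆Foxp3 cells and 0 in both WT samples, where a count of 0 allows up to 2.48 and 2.61 CPM. GFP, which both alleles encode, was found in 24.8% and 23.98% of ∆Foxp3 cells and in 4.35% and 5.07% of WT cells of the class. In resting Tconv the GFP shares were 6.75% and 8.35% in ∆Foxp3 cells and 1.16% and 1.37% in WT cells, at median depths of 3092 and 2815 UMIs in ∆Foxp3 cells and of 2741 and 2857 UMIs in WT cells. The share of reads that fell in cells was 0.597 and 0.534 in the ∆Foxp3 libraries, against 0.791 and 0.795 in the WT libraries. The part of RNA outside cells in the results was not tested.

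The class carried its markers. Cd44, the classic activation marker, was at 76.3 and 83.3 CPM in ∆Foxp3 and 70.3 and 76.7 CPM in WT activated cells, where resting cells held 7.07 to 9.20 CPM. Cells with at least 2 UMI-positive markers of another cell type were 33.7% and 49.9% of the class in ∆Foxp3 and 34.3% and 27.2% in WT samples, and the highest of these values came with erythroid and platelet markers in 36.4% of the cells of ∆Foxp3 sample B. Summed erythroid and platelet markers were at 172 and 604 CPM in ∆Foxp3 cells, against 278 and 215 CPM in WT cells, and Ppbp was at 0. Summed B cell markers were at 136 and 120.4 CPM in ∆Foxp3 cells, against 249.7 and 301 CPM in WT cells. Most of the WT sum was Ighm, which fell (log2 fold change -2.12 in the test below). The B cell markers other than Ighm summed higher in both ∆Foxp3 samples than in either WT sample. Summed myeloid markers were at 394 and 339.7 CPM in ∆Foxp3 cells, against 331 and 299.6 CPM in WT cells, with Lyz1, Csf1r and Cd14 at 0. Summed CD8 T and NK cell markers were at 86.4 and 115 CPM in ∆Foxp3 cells, against 75.2 and 60.97 CPM in WT cells, and summed plasma cell markers were at 143 and 138 CPM in ∆Foxp3 cells, against 117 and 111 CPM in WT cells. The summed T cell markers were at 7146 and 7879 CPM in ∆Foxp3 cells, against 7604 and 7839 CPM in WT cells. Without the cells that held such markers 464 genes were called, of which 455 were among the 922 calls described next, and the part of these markers in the results was not tested otherwise.

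Of 7636 genes tested with edgeR's quasi-likelihood test at a Benjamini-Hochberg adjusted p under 0.05, 552 genes (7.23%) rose and 370 genes (4.85%) fell in ∆Foxp3 activated cells. The 12 highest rises included the chemokines Ccl1, Ccl3 and Ccl4 and the interferon-induced transmembrane proteins Ifitm1 and Ifitm2, and the largest fall was that of Ctse. In all 922 the values of the ∆Foxp3 samples did not overlap those of the WT samples. With 2 samples a group a call at this threshold nearly requires that, so it adds no support. The share without overlap among all genes tested is not given here. The change was at least 4-fold for 105 of the rises and 38 of the falls, and under 2-fold for 451 of the 922. The median log2 fold change of all genes tested was -0.01. DESeq2 on the same sums called 334 genes, and the count was 527 without WT sample B, 503 with every cell thinned to 1500 UMIs and 1516 with no filter on low counts. In what follows, adjusted p-values are those of this edgeR test unless another comparison is named.

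The largest rises were in genes that WT activated cells hardly expressed. Ifitm1, an interferon-induced transmembrane protein with antiviral activity (chr7:140967429-140969827, GRCm38), was at 181 and 203 CPM in the ∆Foxp3 samples, against 0 and 0 CPM in the WT samples. With 706 UMIs against 0, the fold was at least 149 against a floor of 3 counts over the WT group (edgeR adjusted p = 3.44e-06). Its neighbour Ifitm2 (chr7:140954837-140959686) was at 165 and 286 CPM in the ∆Foxp3 samples, against 0.827 and 0 CPM in the WT samples, a ratio of summed CPM of 507 (95% interval 90.7 to 20032), an interval that covers counting error only. Both samples of each genotype stood together for these genes, with ∆Foxp3 sample B the higher. Ifitm3 (chr7:141009590-141010744) was at 87.7 and 188 CPM in the ∆Foxp3 samples, against 11.6 and 8.71 CPM in the WT samples (log2 fold change 3.72 ± 0.44 SE) and Ifitm10 was at 48.7 and 60.5 CPM in the ∆Foxp3 samples, against 15.7 and 13.1 CPM in the WT samples (log2 fold change 1.90 ± 0.24). Without ∆Foxp3 sample B, the log2 fold change of Ifitm3 was 3.10. Of 6 Ifitm genes 4 could be tested and all 4 rose, with a median log2 fold change of 6.25, or 5.47 with Ifitm1 at its bound. In cells thinned to 1500 UMIs each, 4.29% and 5.22% of ∆Foxp3 activated cells held an Ifitm1 UMI, against 0% of both WT samples. Resting cells of the same libraries had 1.01% and 1.16% in ∆Foxp3 and 0% in WT samples. For Ifitm2 the thinned shares were 11.8% and 14.3% in ∆Foxp3 and 0.256% and 0% in WT activated cells, and in resting cells 2.06% and 1.41% in ∆Foxp3 and 0.0908% and 0.0311% in WT samples. Unthinned, they were 18.1% and 20.5% in ∆Foxp3 and 0.256% and 0% in WT activated cells.

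Lgals3 (galectin-3, a secreted lectin made by activated T cells and macrophages; chr14:47373860-47386167) was the broadest of the large rises. It was at 694 and 767 CPM in the ∆Foxp3 samples, against 33.9 and 31.4 CPM in the WT samples (log2 fold change 4.48 ± 0.14, edgeR adjusted p = 3.39e-07). At 1500 UMIs a cell, 41.3% and 42.9% of ∆Foxp3 activated cells held an Lgals3 UMI, against 4.09% and 2.67% of WT activated cells. In resting cells these shares were 5.87% and 4.11% in ∆Foxp3 and 0.227% and 0.218% in WT samples, so the ∆Foxp3 activated cells stood above every other group. Bhlhe40, a transcription factor needed for cytokine production by T helper cells, was at 138 and 167 CPM in the ∆Foxp3 samples, against 9.10 and 4.36 CPM in the WT samples (log2 fold change 4.47 ± 0.26). Rgs16, a regulator that shortens chemokine receptor signals, was at 33.5 and 43.6 CPM in the ∆Foxp3 samples, against 2.48 and 0.871 CPM in the WT samples (log2 fold change 4.42 ± 0.45). The micropeptide gene AA467197 (Nmes1) was at 72.1 and 111 CPM in the ∆Foxp3 samples, against 3.31 and 0 CPM in the WT samples (log2 fold change 5.67 ± 0.52). Lilrb4, an immunoreceptor with inhibitory motifs, was at 67.99 and 121 CPM in the ∆Foxp3 samples, against 8.27 and 0 CPM in the WT samples, and its close copy Gp49a was at 60.6 and 91.1 CPM in the ∆Foxp3 samples, against 8.27 and 0.871 CPM in the WT samples. The pair (chr10:51490898-51496613 and chr10:51480612-51486329) are near-identical, so reads may be split between them and each value alone is uncertain. Without WT sample A the log2 fold changes of Bhlhe40, Rgs16 and Gp49a were 5.07, 5.30 and 6.28. The WT UMIs of AA467197 and Lilrb4 came from that sample alone, and without WT sample B their log2 fold changes were 4.77 and 3.51. Lilrb4 missed the threshold with DESeq2 (adjusted p = 0.283).

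**Figure D1:**
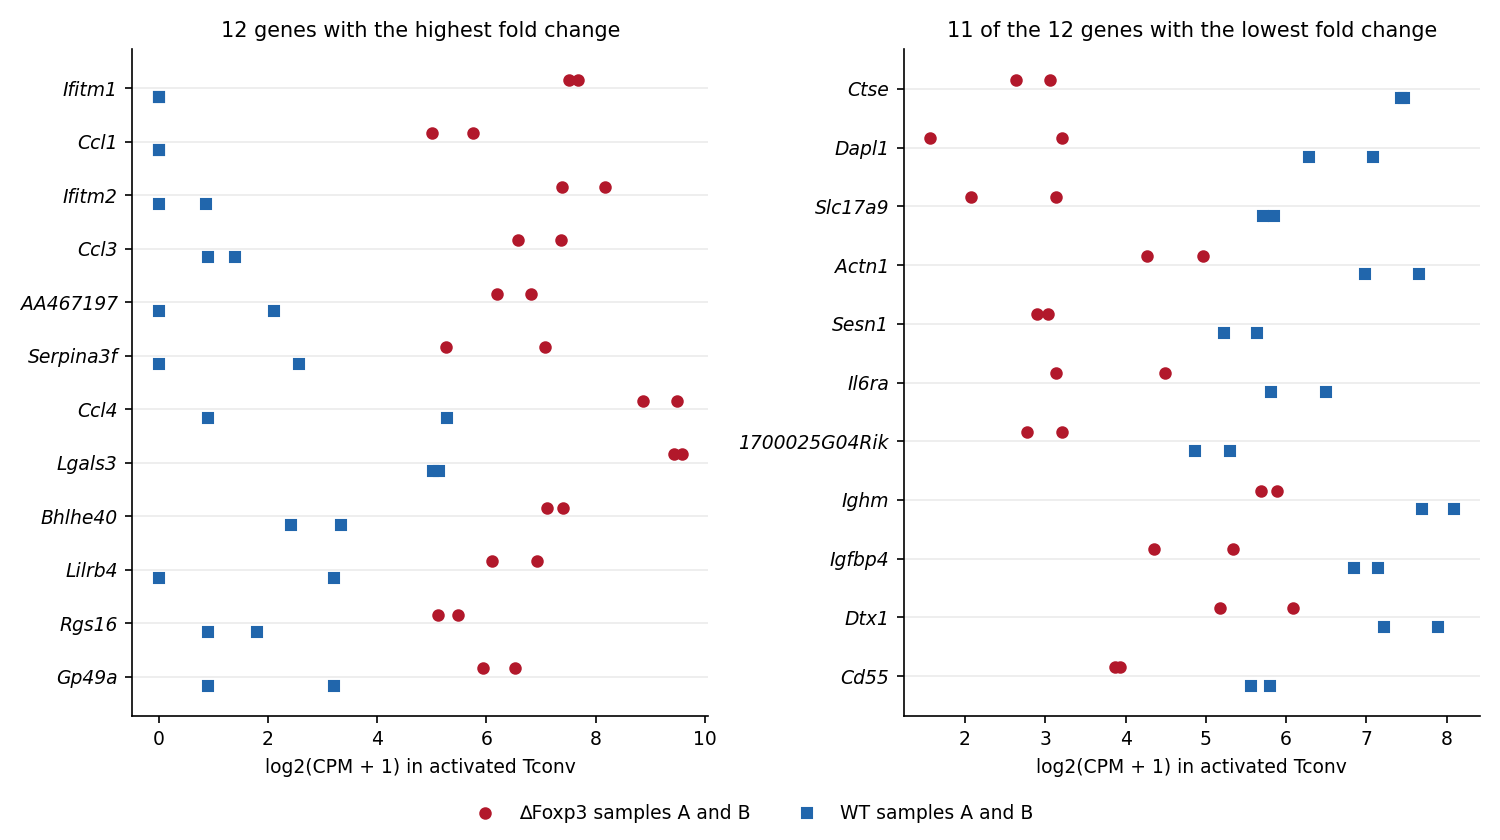
Level in activated Tconv of the 12 called genes that rose most and 11 of the 12 that fell most, as log2(CPM + 1); each point is 1 sample, ∆Foxp3 as circles above WT as squares. Genes were chosen among those without overlap of the groups, so by that rule both ∆Foxp3 samples lie on the same side of both WT samples. Lgals3 has 694 and 767 CPM against 33.9 and 31.4 CPM, and Ctse 7.35 and 5.21 CPM against 172 and 176 CPM.

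Ctse, the endosomal protease cathepsin E (chr1:131638314-131675507), was at 7.35 and 5.21 CPM in the ∆Foxp3 samples, against 172 and 176 CPM in the WT samples (log2 fold change -4.74 ± 0.19, edgeR adjusted p = 1.81e-06). A Ctse UMI was found in 1.23% and 0.774% of ∆Foxp3 cells and 21.7% and 28.3% of WT cells thinned to 1500 UMIs. In resting cells the shares were 2.01% and 2.70% in ∆Foxp3 and 22.3% and 22.7% in WT samples, so in WT mice activated and resting cells held it alike and in ∆Foxp3 mice neither did to that degree. Dapl1, a death-associated protein homologue found in naive T cells, was at 8.27 and 1.95 CPM in the ∆Foxp3 samples, against 76.9 and 135 CPM in the WT samples (log2 fold change -4.22 ± 0.43). Actn1, the actin cross-linker α-actinin-1, was at 30.3 and 18.2 CPM in the ∆Foxp3 samples, against 126 and 201 CPM in the WT samples (log2 fold change -2.71 ± 0.27). Both are typical of naive cells and were low in both ∆Foxp3 samples. Il6ra, the receptor for interleukin-6, was at 21.6 and 7.81 CPM in the ∆Foxp3 samples, against 55.4 and 89.7 CPM in the WT samples (log2 fold change -2.21 ± 0.37). Slc17a9, a vesicular nucleotide carrier, was at 3.22 and 7.81 CPM in the ∆Foxp3 samples, against 51.3 and 56.6 CPM in the WT samples (log2 fold change -3.37 ± 0.33), and Sesn1, a p53- and FoxO-induced restraint on mTORC1, was at 6.43 and 7.16 CPM in the ∆Foxp3 samples, against 36.4 and 48.8 CPM in the WT samples (log2 fold change -2.64 ± 0.30). Cd55, a brake on complement, was at 14.2 and 13.7 CPM in the ∆Foxp3 samples, against 54.6 and 46.2 CPM in the WT samples (log2 fold change -1.84 ± 0.22). Also among the 12 lowest were 1700025G04Rik (log2 fold change -2.18), Dtx1 (-1.87), Igfbp4 (-2.05) and Ighm (-2.12). Ighm, the immunoglobulin μ chain at 58.3 and 50.8 CPM in the ∆Foxp3 samples, against 206 and 271 CPM in the WT samples, is a B cell gene and one of the B cell markers summed above. Without ∆Foxp3 sample A the log2 fold changes were -5.68 for Dapl1, -3.19 for Il6ra, -2.69 for Igfbp4 and -2.76 for Slc17a9. Without ∆Foxp3 sample B it was -4.03 for Slc17a9.

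The change that cluster shares alone would give was computed by weighting the WT level of each cluster by the cluster shares of each ∆Foxp3 sample. The 552 rises had a median change of 1.14 on the log2(CPM + 1) scale, where the shares alone gave -0.01. The 370 falls had a median change of -0.87, where the shares alone gave 0.01. Over all CD4 cells of the samples the same genes had median changes of 1.10 and -0.50, and weighting the WT level of each annotated class by the class shares gave 0.13 and 0.01. These are descriptions with no test. The clusters of the class were, in shares of ∆Foxp3 and then WT samples, Th1 with 27.5% and 21.1% against 42.7% and 23.7%, tissue-like with 24.4% and 23.98% against 28.4% and 21.9%, and Tfh with 22.5% and 13.7% against 7.16% and 13.3%. The cluster called activated 2 held 13.5% and 23.8% against 9.72% and 20.8%, and the dividing cluster held 10.4% and 16.1% against 7.42% and 17.9%. An Irf7 cluster held 1.69% and 1.35% against 4.60% and 2.4%. WT sample A stood apart with the largest Th1 share and the smallest Tfh share.

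In resting Tconv of the same libraries 5 of 6 T cell chemokine genes tested rose and 0 fell, with a median log2 fold change of 4.79. Over all genes tested there, 11.9% rose and 7.63% fell. The interaction, which tests the difference between the 2 genotype effects, was lower in activated cells for 1 of 6 and higher for 0. Over all genes it was lower for 3.29% and higher for 1.43%. In the activated class 5 of 9 T cell chemokine genes could be tested, and 4 rose with a median of 4.90 over the 5. Ccl4 was at 468 and 721 CPM in the ∆Foxp3 samples, against 38.04 and 0.871 CPM in the WT samples (log2 fold change 4.90 ± 0.55). Ccl3 was at 95.1 and 164 CPM in the ∆Foxp3 samples, against 1.65 and 0.871 CPM in the WT samples, a ratio of summed CPM of 97.1 (95% interval 33.02 to 473). Both are CC chemokines that attract T cells and monocytes, and their gene models on chromosome 11 overlap (chr11:83647843-83649378 and chr11:83648624-83664683). No source used here says whether counting used the strand, so reads of the pair may not be fully separable. Ccl1, the CCR8 ligand (chr11:82176666-82179812), was at 52.8 and 31.2 CPM in the ∆Foxp3 samples, against 0 and 0 CPM in the WT samples, at least 34.5-fold higher against the floor of 3 counts over the WT group. Cxcl10, a CXCR3 ligand induced by interferon-γ, was at 45.02 and 26.03 CPM in the ∆Foxp3 samples, against 0 and 4.36 CPM in the WT samples (log2 fold change 4.05 ± 0.64). Ccl5 was at 9821 and 13505 CPM in ∆Foxp3 cells, against 9268 and 4486 CPM in WT cells and did not pass (edgeR adjusted p = 0.0938). The WT samples held few or no UMIs of these genes except for Ccl4 in WT sample A and for Ccl5. In every sample of the whole class Ccl5 was most of the summed list. By cluster that sum was 28831 and 33261 CPM in ∆Foxp3 and 19311 and 15043 CPM in WT Th1 cells. In activated 2 cells it was 4593.5 and 15938 against 54.8 and 111 CPM. In tissue-like cells it was 2627 and 3369.5 against 142 and 173 CPM. In Tfh cells it was 3820 and 15817 against 2264 and 258 CPM. The samples overlapped in dividing cells, at 4038 and 3869 against 4259 and 619 CPM. Without WT sample A the log2 fold change was 9.26 for Ccl4 and 3.01 for Cxcl10, without WT sample B it was 3.99 for Ccl4, and Ccl4 missed the threshold with DESeq2 (adjusted p = 0.122), as did Cxcl10.

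Of 20 effector cytokine genes 10 were tested, 3 rose and 0 fell, with a median of 0.55. Ifng, the Th1 cytokine interferon-γ, was at 123 and 116 CPM in the ∆Foxp3 samples, against 19.02 and 18.3 CPM in the WT samples (log2 fold change 2.68 ± 0.17, edgeR adjusted p = 3.68e-05). At 1500 UMIs a cell it was found in 12.6% and 11.2% of ∆Foxp3 and 2.05% and 3.20% of WT activated cells, against 0.881% and 1.67% of ∆Foxp3 and 0.0454% and 0.0622% of WT resting cells. Csf1, the macrophage growth factor, was at 28.5 and 39.04 CPM in the ∆Foxp3 samples, against 2.48 and 0.871 CPM in the WT samples (log2 fold change 4.23 ± 0.48). Il10, an anti-inflammatory cytokine, was at 27.6 and 9.11 CPM in the ∆Foxp3 samples, against 0 and 0 CPM in the WT samples, at least 15.7-fold higher against the floor. Tnf was at 9.19 and 19.5 CPM in ∆Foxp3 cells, against 6.62 and 1.74 CPM in WT cells and Il2 at 15.6 and 15.6 CPM in ∆Foxp3 cells, against 17.4 and 23.5 CPM in WT cells, and neither passed the test. In resting cells the cytotoxic granule list rose in 9 of 10 genes tested and fell in 0, with a median of 1.25. The interaction was higher in activated cells for 2 of 12 genes and lower for 4. In the activated class 7 of 12 genes of this list rose and 0 fell, with a median of 1.04. Gzma was at 1320.3 and 824 CPM in the ∆Foxp3 samples, against 125 and 41.8 CPM in the WT samples (log2 fold change 3.68 ± 0.37) and Gzmb at 422 and 459 CPM in the ∆Foxp3 samples, against 44.7 and 35.7 CPM in the WT samples (log2 fold change 3.45 ± 0.14), both serine proteases of killer cells. Gzmb UMIs were found in 20.9% and 26.3% of ∆Foxp3 and 3.84% and 2.93% of WT activated cells at 1500 UMIs, so most activated cells of either genotype showed none. Nkg7 (1.35), Ctsw (1.20), Fasl (1.33), Serpinb9 (1.23) and Srgn (0.84, all log2 fold changes) were the other rises. Cd8a was at 36.8 and 38.4 CPM in ∆Foxp3 cells, against 4.13 and 0 CPM in WT cells (log2 fold change 4.09), in cells sorted on CD4, and Klrb1c fell (log2 fold change -1.87). WT UMIs of Cd8a came from WT sample A alone, and the log2 fold change was 3.18 without WT sample B. Without WT sample A it was 5.11 for Csf1 and 4.65 for Gzma. Klrb1c missed the threshold without ∆Foxp3 sample A (-1.68) or WT sample B (-1.48).

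The Th1 list rose in 8 of 15 genes tested and fell in 0, with a median of 0.77, yet its lineage factors did not pass. Tbx21, which encodes T-bet, was at 44.6 and 68.97 CPM in ∆Foxp3 cells, against 56.2 and 30.5 CPM in WT cells (log2 fold change 0.36, edgeR adjusted p = 0.474), and the Th1 chemokine receptor Cxcr3 was at 306 and 289 CPM in ∆Foxp3 cells, against 374 and 267 CPM in WT cells (log2 fold change -0.11, edgeR adjusted p = 0.698). The ∆Foxp3 and WT samples overlapped in both genes. In resting Tconv of the same libraries Tbx21 was at 3.76 and 11.4 CPM in ∆Foxp3 and 1.38 and 0.646 CPM in WT cells and Cxcr3 at 21.7 and 30.2 CPM in ∆Foxp3 and 4.88 and 4.95 CPM in WT cells. The difference between the class effects was -2.25 for Tbx21 (edgeR interaction adjusted p = 0.00455) and -2.41 for Cxcr3 (edgeR interaction adjusted p = 1.16e-05). Among the rises in the list were those of Bhlhe40, the interleukin-18 receptor chains Il18r1 (2.06) and Il18rap (1.07), the interferon-γ receptor chain Ifngr1 (1.60), Id2 (1.15) and Ly6c2 (0.62). Il18r1 was at 76.7 and 139 CPM in the ∆Foxp3 samples, against 26.5 and 24.4 CPM in the WT samples. Of 8 Th2 genes tested, 3 rose (Batf, Maf and Nfil3) and Il4ra, the interleukin-4 receptor chain, fell, at 21.6 and 21.5 CPM in the ∆Foxp3 samples, against 36.4 and 42.7 CPM in the WT samples (log2 fold change -0.87 ± 0.22). Il4ra missed the threshold without ∆Foxp3 sample A (-0.87) or WT sample B (-0.73), and Nfil3 missed it without ∆Foxp3 sample A (1.74), WT sample A (1.81) or WT sample B (1.94). Gata3, the Th2 lineage factor, was at 119 and 121 CPM in ∆Foxp3 cells, against 131 and 106 CPM in WT cells (log2 fold change 0.01, not passed). Of 4 Th17 genes tested, 1 rose, Rora (1.14). With the NKT cluster kept in, the log2 fold changes of Id2 and Rora were 0.14 and 0.44 and neither passed. Of 13 Tfh genes tested 3 rose, Pdcd1, Tox2 (1.97) and Sostdc1, and Il6ra fell. Sostdc1, a secreted BMP and WNT antagonist, was at 43.6 and 19.5 CPM in ∆Foxp3 cells, against 0 and 0 CPM in WT cells, at least 26.4-fold higher against the floor.

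Inhibitory receptors rose in 6 of 12 genes tested in resting cells and fell in 3, with a median of 1.81. The interaction was higher in activated cells for 1 of 13 genes and lower for 1. In the activated class inhibitory receptors rose in 6 of 13 genes tested and fell in 2, with a median of 1.38. Lag3, a co-inhibitory receptor that binds MHC class II, was at 174 and 175 CPM in the ∆Foxp3 samples, against 23.98 and 11.3 CPM in the WT samples (log2 fold change 3.29 ± 0.22, edgeR adjusted p = 5.50e-05). Pdcd1, which encodes PD-1, was at 108 and 107 CPM in the ∆Foxp3 samples, against 28.9 and 28.7 CPM in the WT samples (log2 fold change 1.89 ± 0.16). Havcr2, which encodes TIM-3, was at 12.4 and 11.1 CPM in ∆Foxp3 cells, against 0 and 0 CPM in WT cells, at least 9.31-fold higher against the floor. Klrg1 (1.99), Cd160 (2.23) and Lilrb4 were the other rises. Cd160 turned to -0.32 with the NKT cluster kept in, and Lag3 had a log2 fold change of 3.91 without WT sample A. Cd5, which damps T cell receptor signals, fell at 177 and 155 CPM in ∆Foxp3 cells, against 277 and 261 CPM in WT cells (log2 fold change -0.69), as did 4632428N05Rik, the symbol used in the files for Vsir (-0.46). Ctla4 was at 48.2 and 32.5 CPM in ∆Foxp3 cells, against 33.1 and 33.1 CPM in WT cells and missed the threshold (log2 fold change 0.31, edgeR adjusted p = 0.437). Costimulatory and TNF receptor genes split. Tnfrsf4 (OX40) rose at 238 and 249 CPM in the ∆Foxp3 samples, against 86.8 and 47.04 CPM in the WT samples (log2 fold change 1.86 ± 0.20), as did 6 others of the 14 tested, among them Cd7 (1.93) and Tnfsf8 (1.59). Cd28, the main costimulatory receptor of naive T cells, fell at 271 and 240.1 CPM in the ∆Foxp3 samples, against 475 and 459 CPM in the WT samples (log2 fold change -0.87 ± 0.11), and Cd27 fell too (-0.62). The log2 fold change of Cd7 was 1.17 without ∆Foxp3 sample B, and that of Tnfsf8 was 2.42 without WT sample A.

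Genes of the interleukin-2 receptor and its STAT5 signal moved in both directions. Il2ra, the high-affinity chain, fell in ∆Foxp3 activated cells, at 4.59 and 7.16 CPM in the ∆Foxp3 samples, against 21.5 and 15.7 CPM in the WT samples (log2 fold change -1.70 ± 0.38). In resting cells it was at 5.36 and 9.64 CPM in ∆Foxp3 and 3.01 and 2.26 CPM in WT samples, and the class effects differed by -3.11 (edgeR interaction adjusted p = 0.001). The feedback inhibitors rose: Cish was at 56.5 and 68.3 CPM in the ∆Foxp3 samples, against 13.2 and 8.71 CPM in the WT samples (log2 fold change 2.48 ± 0.26), Socs1 had a log2 fold change of 1.66 and Socs2 of 1.32. Over the list, 7 of 17 genes tested rose and 2 fell, with a median of 0.44. In resting cells 13 rose and 0 fell, and the interaction was lower in activated cells for 7 genes and higher for 0. Over all genes tested, 11.9% rose and 7.63% fell in resting cells, and the interaction was lower for 3.29% and higher for 1.43%. The Treg signature list rose in 9 of 25 genes tested and fell in 2, with a median of 0.91, in a class from which cells annotated as Treg are absent. In resting cells 17 of 25 rose and 1 fell, with a median of 1.80, and the interaction was lower in activated cells for 9 of 26 genes and higher for 1. In the V3 experiment 4 of 26 rose and 5 fell, with a median of 0.22. Among the rises, S100a4, S100a6, Tnfrsf4 and Klrg1 are on other lists here too. Penk, which encodes the enkephalin precursor, was at 55.1 and 44.2 CPM in the ∆Foxp3 samples, against 6.62 and 3.48 CPM in the WT samples (log2 fold change 3.28 ± 0.32). Ikzf2, which encodes Helios, had a log2 fold change of 1.08, Nrp1 of 0.91 and Tnfrsf18 (GITR) of 0.57. Gpr83 fell (-2.29), and Il2ra is on this list too. GFP UMIs, which mark transcription of the Foxp3 locus, were higher in ∆Foxp3 cells of the class, as given above. With the 165 and 130 ∆Foxp3 cells and the 19 and 21 WT cells that held a UMI of Foxp3, GFP or Cre left out, the list rose in 10 of 23 genes tested and fell in 2, with a median of 0.84.

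Activation and memory genes rose in 19 of 27 genes tested and fell in 1. Cytoskeletal, galectin, annexin and S100 genes made up most of these. Vim, the intermediate filament vimentin, was at 1217 and 1341 CPM in the ∆Foxp3 samples, against 449.9 and 461 CPM in the WT samples (log2 fold change 1.49 ± 0.10). Lgals1 was at 3625 and 4234 CPM in the ∆Foxp3 samples, against 1314 and 1049.6 CPM in the WT samples (log2 fold change 1.73 ± 0.12), and S100a6, a calcium-binding protein, at 1783 and 1808 CPM in the ∆Foxp3 samples, against 764 and 742 CPM in the WT samples (log2 fold change 1.25). Anxa1 (2.60), Anxa2 (1.09), S100a4 (1.58) and the integrin chain Itgb1 (1.32) rose as well. The α4 integrin Itga4 fell (-0.77). Cd44 (log2 fold change 0.11, edgeR adjusted p = 0.668) and Cd69 (-0.15, adjusted p = 0.743), whose proteins are common surface markers of activation, did not pass. The median of the list was 0.91.

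Naive and resting genes fell in 20 of 24 genes tested, with a median of -1.14, and Bcl2, a survival gene, was the 1 that rose (1.0). Transcription factors that hold T cells in quiescence were among them. Bach2 was at 5.05 and 1.95 CPM in the ∆Foxp3 samples, against 14.9 and 19.2 CPM in the WT samples (log2 fold change -2.16), Foxp1 at 90.5 and 71.6 CPM in the ∆Foxp3 samples, against 183 and 198 CPM in the WT samples (-1.22) and Id3 at 103 and 52.1 CPM in the ∆Foxp3 samples, against 176 and 177 CPM in the WT samples (-1.15). Lef1 (-0.99), Foxo1 (-1.07), Klf2 (-0.47) and Satb1 (-0.90) fell as well, while Tcf7 was at 269 and 160.1 CPM in ∆Foxp3 cells, against 321 and 330.1 CPM in WT cells and did not pass (edgeR adjusted p = 0.0854). Il7r, the receptor of the survival cytokine interleukin-7, was at 68.9 and 59.9 CPM in ∆Foxp3 cells, against 131 and 128 CPM in WT cells (log2 fold change -1.0). In resting cells of the same libraries 2 of the list rose and 11 fell, with a median of -0.28, and the interaction was lower in the activated class for 11 genes and higher for 1. Of the homing and chemokine receptor list, 6 of 20 genes tested rose and 7 fell, with a median of 0.12. Ccr7, which guides naive T cells into lymph nodes, was at 94.6 and 44.2 CPM in ∆Foxp3 cells, against 146 and 209 CPM in WT cells (log2 fold change -1.32), and the gut-homing receptor Ccr9 (-2.76), Gpr183 (-1.72), Gpr18 (-1.24) and S1pr1 (-0.60), which drives exit from lymphoid organs, fell as well. Cxcr6 rose, at 623 and 735 CPM in ∆Foxp3 cells, against 259.6 and 179 CPM in WT cells (1.63), as did Cx3cr1, at 54.7 and 27.98 CPM in ∆Foxp3 cells, against 14.1 and 4.36 CPM in WT cells (2.18). With the NKT cluster kept in, Cxcr6 had 0.12 and did not pass.

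Proliferation genes rose in 16 of 28 genes tested and fell in 0, with a median of 1.45. Birc5 (survivin) was at 57.4 and 128 CPM in the ∆Foxp3 samples, against 4.96 and 16.6 CPM in the WT samples (log2 fold change 3.08 ± 0.51), Top2a had a log2 fold change of 1.73 ± 0.30, and the histone gene H2afz was at 1560.5 and 1852 CPM in the ∆Foxp3 samples, against 764 and 698 CPM in the WT samples (1.22 ± 0.11). Mki67, the Ki-67 gene, was at 22.5 and 33.8 CPM in ∆Foxp3 cells, against 3.31 and 11.3 CPM in WT cells (1.92). In Birc5 and Mki67 ∆Foxp3 sample B and WT sample B were the higher of their groups, as was their share of dividing cells. The log2 fold change of Birc5 was 2.43 without ∆Foxp3 sample B, 2.42 without WT sample A and 4.20 without WT sample B. With the dividing cluster left out, 9 of 20 genes tested rose with a median of 0.82, and in Th1 cells alone 3 of 12 rose. Glycolysis genes rose in 6 of 17, among them Gapdh (0.97), Tpi1 (1.05) and the lactate exporter Slc16a3 (1.45), with a median of 0.36. Respiratory chain genes rose in 4 of 28 and fell in 0, with a median of 0.22.

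Heat shock chaperones fell in 7 of 15 genes tested and rose in 0, with a median of -0.44. In resting cells 9 of 16 fell and 0 rose, with a median of -0.55, and the interaction was lower for 0 genes and higher for 1. In the activated class of the V3 experiment 1 of 16 rose and 1 fell, with a median of -0.11. Hsph1, a co-chaperone of Hsp70, was at 14.7 and 12.4 CPM in the ∆Foxp3 samples, against 48.8 and 40.1 CPM in the WT samples (log2 fold change -1.70 ± 0.24), and Hsp90aa1 (-0.86), Hsp90ab1 (-0.65) and Dnaja1 (-0.75) fell with it. Immediate early genes rose in 4 of 16 and fell in 2, with Dusp5 (1.22) and Nfkbia (0.75) up and the RNA-decay factor Zfp36 (-1.16) down. The BCL-2 family rose in 4 of 12, through Bcl2, Bcl2a1b (1.39), Bcl2a1d (1.90) and Pmaip1 (1.46), of which the Bcl2a1 copies are near-identical and uncertain. MHC class I genes rose in 3 of 13, H2-D1 (0.57), H2-Q6 (1.19) and H2-T22 (0.55), where similar copies are again uncertain. Cytosolic ribosomal protein genes fell in 8 of 36, with a median of -0.23. In cholesterol synthesis 1 of 18 fell, the regulator Srebf2 (-1.15), and of 11 mitochondrially encoded transcripts 0 passed, with a median of -0.26 and 0 of 11 with a higher value in ∆Foxp3 cells. Of the markers of other cells, Cd74 (1.36), the invariant chain of MHC class II, and Cd68 rose, and Car2 (-2.82) fell. Calls were lost for Cd68 and Pmaip1 without WT sample A (6.62 and 1.21) and for Cd68, Cd74 and H2-T22 without WT sample B (3.10, 0.99 and 0.54). Car2 was at -2.09 without ∆Foxp3 sample A and -3.73 without ∆Foxp3 sample B.

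**Figure D2:**
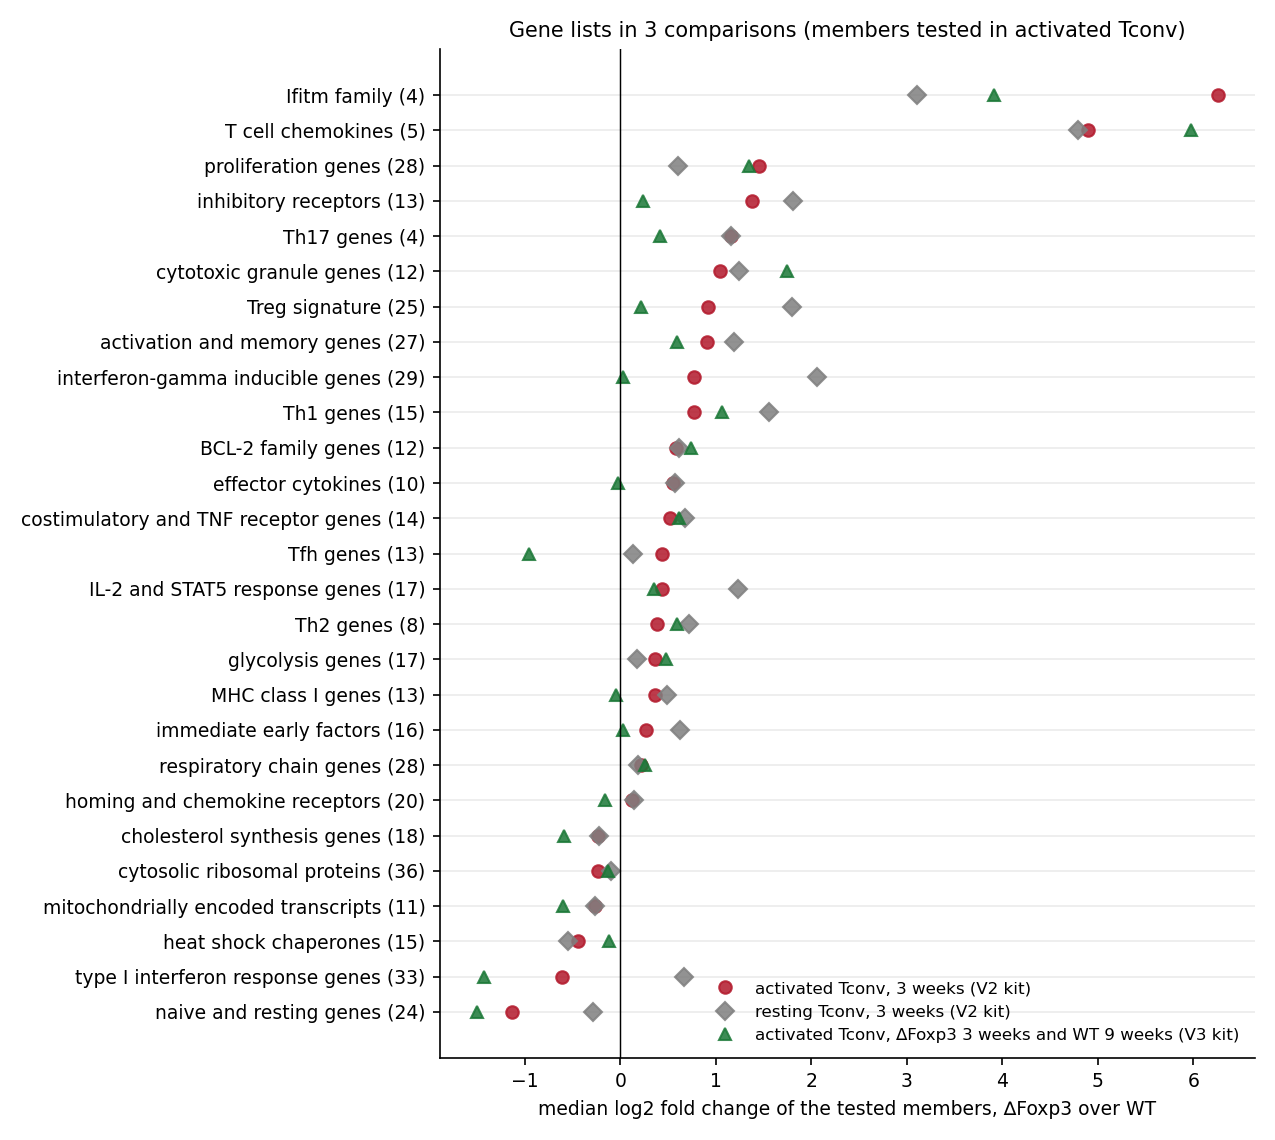
Median log2 fold change (∆Foxp3 over WT) of the tested genes of each list on the x axis, in activated Tconv (circles), resting Tconv (diamonds) and activated Tconv of the V3 experiment (triangles), with the number tested in activated Tconv beside each name. The type I interferon list lies at -0.61 in activated and 0.67 in resting Tconv, and the naive list at -1.14 and -0.28.

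The genotype effect on interferon genes differed between the activated and the resting class. To show which promoter letters the lists share, the promoters of the 3 interferon genes with the lowest p that have an entry in the table are printed from RefSeq (GRCm38.p6, plus strand for all 3), 250 bases before to 50 bases after the start. Ly6a, the interferon gene with the lowest p, is named only. Capitals mark GAAANNGAA, the core of the interferon-stimulated response element, or TTCNNNGAA, a STAT site. Both strands were searched, and the motifs do not overlap each other where both occur.
Pyhin1, chr1:173630609-173630908, no match: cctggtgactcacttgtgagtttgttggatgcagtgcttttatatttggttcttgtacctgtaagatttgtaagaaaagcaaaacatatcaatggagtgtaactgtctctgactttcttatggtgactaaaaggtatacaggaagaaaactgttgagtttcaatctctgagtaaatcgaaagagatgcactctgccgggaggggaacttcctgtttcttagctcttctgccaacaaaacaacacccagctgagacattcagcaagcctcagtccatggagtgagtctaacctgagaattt
Serpina3g, chr12:104235897-104236196, TTCNNNGAA from -33: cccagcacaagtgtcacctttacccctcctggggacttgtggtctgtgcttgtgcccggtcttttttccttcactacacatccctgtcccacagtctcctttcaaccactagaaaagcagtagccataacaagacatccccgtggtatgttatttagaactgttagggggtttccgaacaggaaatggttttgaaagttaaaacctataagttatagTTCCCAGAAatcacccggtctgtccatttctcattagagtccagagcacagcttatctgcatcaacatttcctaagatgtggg
Igtp, chr11:58199306-58199605, TTCNNNGAA from -45 and GAAANNGAA from -34: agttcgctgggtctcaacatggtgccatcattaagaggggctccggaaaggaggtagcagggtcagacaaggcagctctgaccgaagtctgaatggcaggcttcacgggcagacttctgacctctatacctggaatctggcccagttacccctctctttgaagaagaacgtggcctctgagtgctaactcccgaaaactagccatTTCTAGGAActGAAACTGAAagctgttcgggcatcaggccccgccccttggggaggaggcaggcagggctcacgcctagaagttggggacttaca
Of all 32817 promoters of this length in the table, 8.55% held GAAANNGAA and 8.29% held TTCNNNGAA. Promoters were found for 50 of the 67 genes on the interferon lists. Of the type I interferon list, 16 of 26 (61.5%) held GAAANNGAA and 3 of 26 (11.5%) TTCNNNGAA. Of the interferon-γ list, 12 of 21 (57.1%) held GAAANNGAA and 11 of 21 (52.4%) TTCNNNGAA. A match describes the letters of this window and is not a bound site.

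Interferon-γ inducible genes rose in 16 of 29 genes tested in the activated class and fell in 0, with a median log2 fold change of 0.77. Serpina3g, a serpin that inhibits cathepsins, whose promoter with a STAT site is printed above, was at 243 and 412 CPM in the ∆Foxp3 samples, against 38.04 and 13.9 CPM in the WT samples (log2 fold change 3.63 ± 0.35, edgeR adjusted p = 4.74e-04). Its neighbour Serpina3f (chr12:104214544-104221129) was at 37.2 and 134 CPM in the ∆Foxp3 samples, against 4.96 and 0 CPM in the WT samples (log2 fold change 4.98 ± 0.93), with sample B of ∆Foxp3 above sample A, and serpins of this cluster are similar in sequence, so their reads may be shared. The WT UMIs of Serpina3f came from WT sample A alone. Its log2 fold change was 5.68 without ∆Foxp3 sample A, 3.83 without ∆Foxp3 sample B and 4.07 without WT sample B, and DESeq2 gave an adjusted p of 0.153. That of Serpina3g was 4.51 without WT sample A. Igtp, an immunity-related GTPase that guards against intracellular parasites, was at 219 and 231 CPM in the ∆Foxp3 samples, against 112 and 87.1 CPM in the WT samples (log2 fold change 1.17 ± 0.14). Iigp1, of the same family, was at 99.7 and 86.5 CPM in the ∆Foxp3 samples, against 37.2 and 25.3 CPM in the WT samples (log2 fold change 1.58 ± 0.19). In each of these the samples of the genotypes did not overlap. The immunoproteasome subunits Psmb8 (0.61), Psmb9 (0.66) and Psmb10 (0.40), the peptide transporter Tap1 (0.86), Irf1 (0.45) and Irf8 (1.62) rose as well.

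Type I interferon response genes took the other direction in the activated class: 3 of 33 tested rose, 12 fell and 18 did not pass, with a median of -0.61. Usp18, the protease that removes ISG15 and damps the type I receptor, was at 5.05 and 5.21 CPM in the ∆Foxp3 samples, against 29.8 and 24.4 CPM in the WT samples (log2 fold change -2.39 ± 0.33, edgeR adjusted p = 0.0023). Pyhin1, an interferon-induced DNA-binding protein whose promoter above holds neither motif, was at 87.7 and 74.2 CPM in the ∆Foxp3 samples, against 212 and 206 CPM in the WT samples (log2 fold change -1.36 ± 0.13). Both ∆Foxp3 samples lay below both WT samples in these genes. The other falls were those of Oas1a (-3.06), Bst2 (-0.70), Ifi27l2a (-0.61), Ifi203 (-0.49), Pydc3 (-1.03), Pydc4 (-1.35), Trim30a (-0.98), Slfn5 (-1.77), Phf11c (-0.98) and Rnf213 (-1.62), several of which belong to families of similar copies. The rises were those of Isg20 (1.16), Zbp1 (0.74) and Ly6a (1.31 ± 0.11). Ly6a, the surface protein Sca-1, was at 1396 and 1495 CPM in the ∆Foxp3 samples, against 629 and 538 CPM in the WT samples. Ifit1, a protein that binds viral RNA and a common type I target, was at 33.5 and 25.4 CPM in ∆Foxp3 cells, against 43.00 and 60.1 CPM in WT cells and did not pass (edgeR adjusted p = 0.0603).

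In resting Tconv of the same 4 libraries, 1203 of 10070 genes tested rose (11.9%) and 768 fell (7.63%). The count of both was 457 without WT sample A and 556 without WT sample B. There the type I list rose in 27 of 37 genes tested and fell in 1, with a median of 0.67, and the interferon-γ list rose in 30 of 30, with a median of 2.06. Of the 552 rises of the activated class, 516 were tested in resting cells, 473 had the same sign there and 327 (59.2%) were called. Of the 370 falls, 367 were tested there, 312 had the same sign and 195 (52.7%) were called. Calls in the opposite direction numbered 6 and 22. Activated and resting sums share libraries and mice, so their fold changes are set side by side and only the interaction is a test of the difference. That test found the genotype effect higher in activated than in resting cells for 128 of 8975 genes (1.43%) and lower for 295 (3.29%). For the type I list it was lower for 29 of 36 genes tested and higher for 0, with a median difference of -1.37. For the interferon-γ list it was lower for 21 of 30 and higher for 0. Clusters named by Irf7 held 14.8% and 14.4% of resting cells in ∆Foxp3 and 7.47% and 9.08% in WT samples. In the activated class that share was lower in ∆Foxp3 than in WT samples, as given above. The part of these shares in the resting rises and in the interaction was not tested. Usp18 in resting cells was at 37.8 and 43.8 CPM in ∆Foxp3 and 23.4 and 26.5 CPM in WT samples, and the class effects differed by -3.08 (edgeR interaction adjusted p = 6.35e-05). Ifit1 in resting cells was at 134 and 129 CPM in ∆Foxp3 and 56.9 and 56.8 CPM in WT samples, and its class effects differed by -1.96 (edgeR interaction adjusted p = 6.73e-05). Iigp1 in resting cells was at 359.9 and 363 CPM in ∆Foxp3 and 19.99 and 20.6 CPM in WT samples, a difference in class effect of -2.56 (edgeR interaction adjusted p = 1.16e-05). Both ∆Foxp3 resting samples stood above both WT resting samples in all 3 genes.

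**Figure D3:**
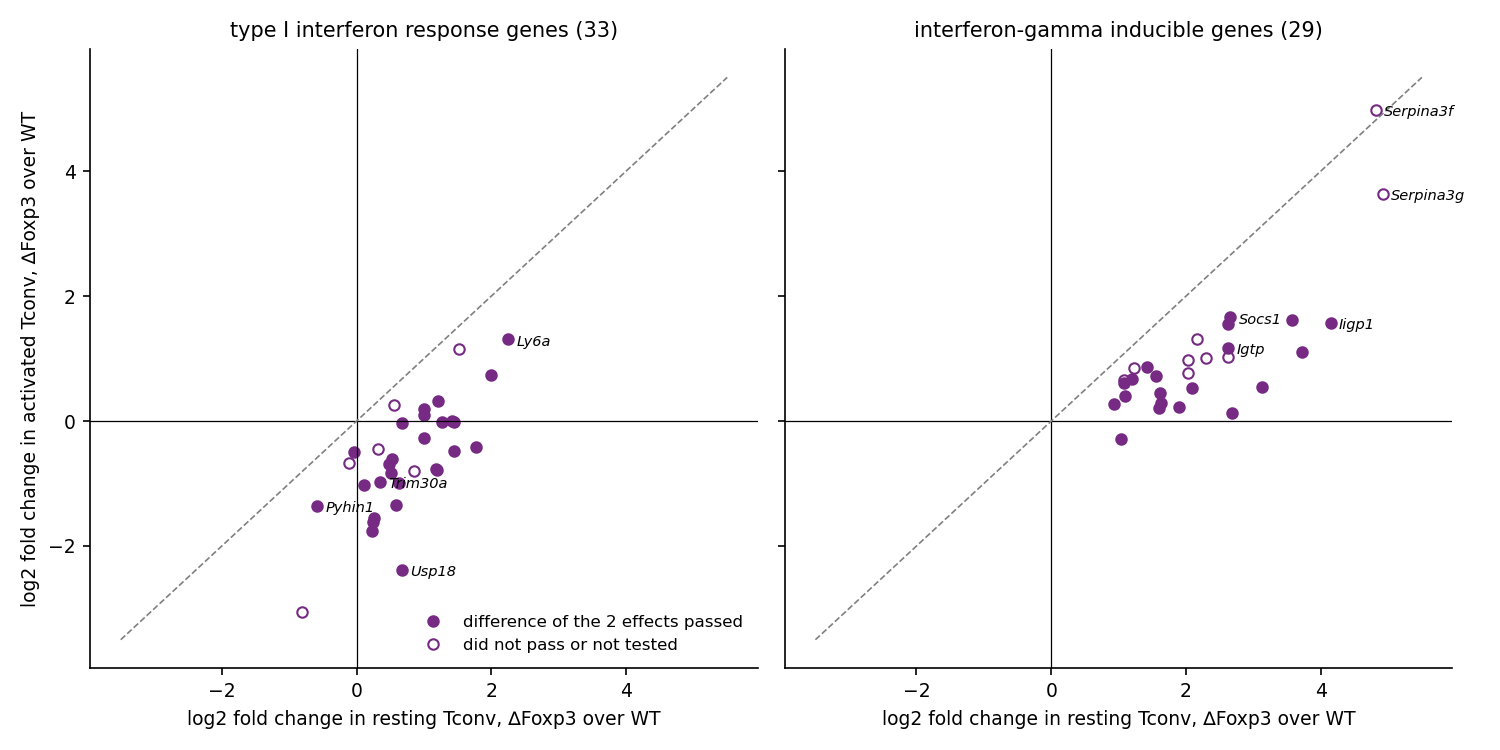
Log2 fold change (∆Foxp3 over WT) of each interferon gene tested in both classes, in resting Tconv on the x axis and in activated Tconv on the y axis, with a panel for each list; filled points passed the edgeR interaction test, and the dashed diagonal marks equal change. Usp18, of the type I list, lies at -2.39 in activated and 0.67 in resting cells, and Igtp, of the interferon-γ list, at 1.17 and 2.62.

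The summed levels, in which abundant genes weigh most, were set beside these tests. The type I list summed to 5529 and 5067 CPM in ∆Foxp3 cells, against 6046 and 5299 CPM in WT cells of the activated class. In resting cells it summed to 5845 and 5952 CPM in ∆Foxp3 cells, against 3276 and 3223 CPM in WT cells. The interferon-γ list summed to 4739 and 4969.9 CPM in ∆Foxp3 cells, against 3046 and 2717 CPM in WT cells of the activated class, and to 7000.0 and 7016 CPM in ∆Foxp3 cells, against 2221 and 2196 CPM in WT cells of the resting class. The activated ∆Foxp3 sums of the type I list overlapped those of WT. Ly6a, which rose and whose values are given above, is part of these sums. Of the 33 genes tested 8 had a positive log2 fold change, so the overlap of the sums does not speak for most genes of the list. By cluster, the type I sum was 4572 and 4515 CPM in ∆Foxp3 cells, against 5677 and 6371 CPM in WT cells in Th1 and 5299 and 4222 CPM in ∆Foxp3 cells, against 5931 and 5924 CPM in WT cells in tissue-like cells. It was 5589.8 and 5512 CPM in ∆Foxp3 cells, against 4099 and 3715 CPM in WT cells in activated 2 and 6060.5 and 6415 CPM in ∆Foxp3 cells, against 5201 and 4052 CPM in WT cells in Tfh cells. In dividing cells it was 5357 and 4809 CPM in ∆Foxp3 cells, against 4115 and 3959 CPM in WT cells. The sum was thus lower in ∆Foxp3 cells of the Th1 and tissue-like clusters and higher in the other 3, without overlap of samples in any of the 5. In dividing cells the median log2 fold change was -0.12 with 5 of 13 genes tested positive, so the higher sum there is not one of most genes. The median was 0.31 in activated 2 cells (12 of 17 positive) and 0.18 in Tfh cells (11 of 17). It was -0.47 in Th1 cells (7 of 24) and -0.53 in tissue-like cells (6 of 24). Fitted alone, Th1 cells had 2 rises and 10 falls among 24 type I genes, tissue-like cells 1 and 4 among 24, activated 2 cells 1 and 1 among 17, dividing cells 2 and 1 among 13, and Tfh cells 1 and 0 among 17. With the Irf7 cluster, which the authors named by an interferon gene, left out of the class, 3 genes rose and 12 fell, with a median of -0.47.

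**Figure D4:**
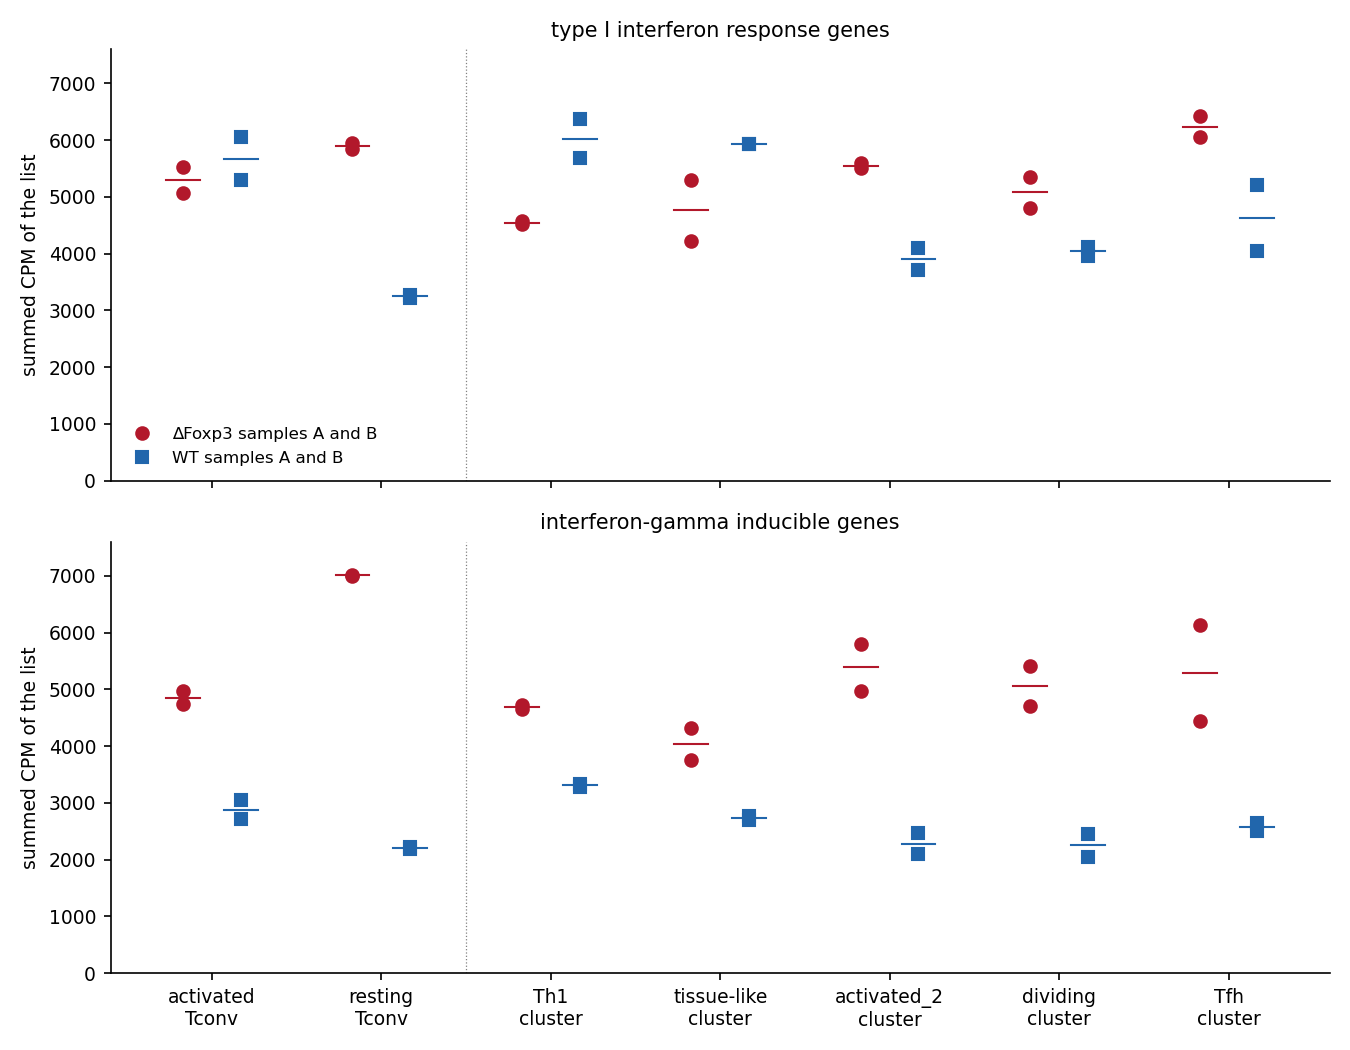
Summed CPM of the type I interferon and interferon-γ inducible lists in each sample, for activated and resting Tconv and for 5 clusters of the activated class; each point is 1 sample, ∆Foxp3 left of WT, and short lines are means of 2. Activated cells hold 5529 and 5067 CPM of type I genes in ∆Foxp3 samples against 6046 and 5299 CPM in WT samples, while for the interferon-γ list the ∆Foxp3 samples lie above the WT samples in both classes and all 5 clusters.

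Fitted alone with edgeR, Th1 cells gave 246 rises and 211 falls of 4599 genes tested, and tissue-like cells 216 and 184 of 4214. Dividing cells gave 223 and 258 of 2853, activated 2 cells 98 and 47 of 3120, and Tfh cells 6 and 1 of 2614, with 376 genes at an unadjusted p under 0.05. The 12 highest and 12 lowest genes were chosen on the sums of these same cells, so their signs in the clusters are a description. Of the 12 highest, 10 could be tested in Th1, 7 in tissue-like, 6 in Tfh, 5 in dividing and 4 in activated 2 cells, and each of these was positive there. Of the 12 lowest, 8, 11, 6, 11 and 9 could be tested in the same order, and each was negative. Lgals3 in Th1 cells was at 1018 and 1067 CPM in ∆Foxp3 cells, against 39.98 and 66.1 CPM in WT cells, and Gzmb in Th1 cells was at 853 and 918 CPM in ∆Foxp3 cells, against 59.02 and 97.5 CPM in WT cells. Ctse in Th1 cells was at 0 and 0 CPM in ∆Foxp3 cells, against 158 and 110.1 CPM in WT cells. Ifitm1 was uneven: in tissue-like cells it was at 383 and 471 CPM in ∆Foxp3 cells, against 0 and 0 CPM in WT cells, and in Th1 cells at 206 and 121 CPM in ∆Foxp3 cells, against 0 and 0 CPM in WT cells. In activated 2 cells it was at 10.99 and 0 CPM in ∆Foxp3 cells, against 0 and 0 CPM in WT cells, and in Tfh cells at 28.1 and 4.61 CPM in ∆Foxp3 cells, against 0 and 0 CPM in WT cells. The differences between clusters in Ifitm1 were not tested.

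**Figure D5:**
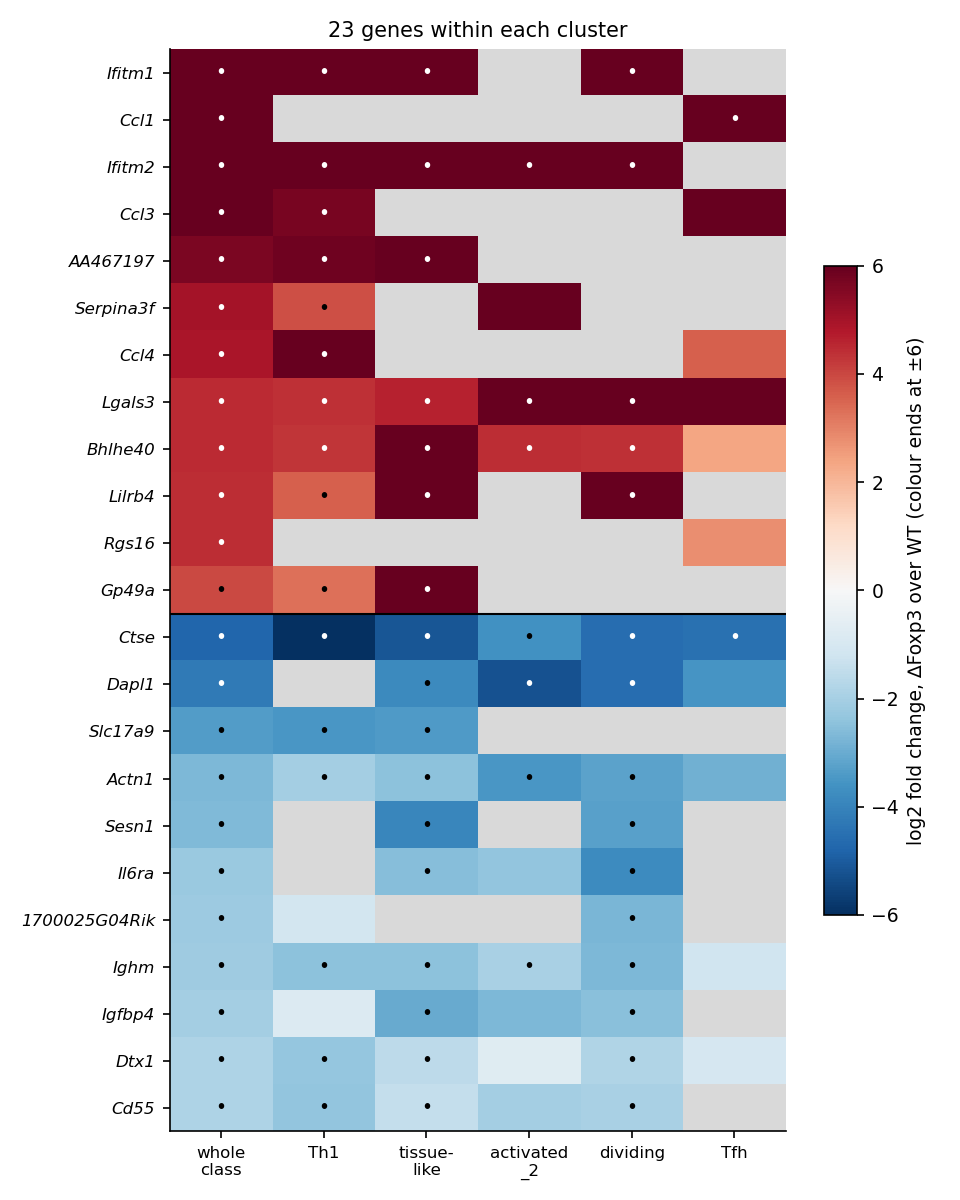
Log2 fold change (∆Foxp3 over WT) of the 12 highest and 11 of the 12 lowest genes in the whole class and in each of the 5 clusters with at least 20 cells a sample, fitted alone; grey cells could not be tested, colours end at 6 and -6, and dots mark an adjusted p under 0.05. Every gene tested in a cluster has the colour of the whole class, with calls for 10 of 10 highest genes tested in Th1 and 1 of 6 in Tfh.

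The V3 experiment gives the same contrast in other libraries, with 446 and 431 activated cells of ∆Foxp3 mice aged 3 weeks, against 112 and 64 activated cells of WT mice aged 9 weeks. Age and the CD45.1 cross differ with genotype there and cannot be told apart from it. The class was also made up of other clusters there. Activated 2 cells were 42.8% and 35.5% of the class in ∆Foxp3 and 4.46% and 4.69% in WT samples, dividing cells 21.3% and 28.3% in ∆Foxp3 and 14.3% and 10.9% in WT samples, and Th1 cells 8.97% and 9.28% in ∆Foxp3 and 33.9% and 21.9% in WT samples. The samples of a group share 1 hashtag and may be 1 mouse. With edgeR, 605 of 8876 genes rose (6.82%) and 545 fell (6.14%). The count of both was 704 without ∆Foxp3 sample 2, 509 without WT sample 1 and 425 with every cluster weighted equally. The part of the cluster shares in the overlap with the V2 calls was not tested. Of the 552 rises above, 542 were tested and 495 (91.3%) had the same sign, and 268 were called, which is 48.6% of the V2 rises and 44.3% of the V3 rises. Of the 370 falls, 351 were tested and 333 (94.9%) had the same sign, and 186 were called, which is 50.3% of the V2 falls and 34.1% of the V3 falls. Calls in the opposite direction numbered 4 and 2. Lgals3 was at 956 and 918 CPM in ∆Foxp3 and 79.3 and 112 CPM in WT cells (log2 fold change 3.31), and Ctse at 8.63 and 9.31 CPM in ∆Foxp3 and 168 and 191 CPM in WT cells (-4.31). Ifitm1 was at 142 and 73.2 CPM in ∆Foxp3 and 3.24 and 4.65 CPM in WT cells (4.76). Rgs16 missed the threshold there (2.15, edgeR adjusted p = 0.116).

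The naive list fell in 15 genes and rose in 2 in the V3 experiment, with a median of -1.50. Type I interferon genes fell in 27 of 35 and rose in 1, with a median of -1.43, and all 12 genes that fell in the V2 class fell there too. The Irf7 cluster held 0.673% and 0.232% of the V3 class in ∆Foxp3 and 5.36% and 7.81% in WT samples. Its part in these falls was not tested. Ifit1 was at 1.19 and 1.06 CPM in ∆Foxp3 and 69.6 and 95.3 CPM in WT cells, and it fell there, whereas it did not pass in the V2 samples, a difference that was not tested. The type I list summed to 3922 and 3658 CPM in ∆Foxp3 cells, against 6887 and 7892 CPM in WT cells. The interferon-γ list did not repeat its rise: 3 of 28 rose and 3 fell, with a median of 0.03, and it summed to 3594 and 3560.4 CPM in ∆Foxp3 cells, against 2933 and 3235 CPM in WT cells. Nor did the Tfh list, where 0 of 12 rose and 6 fell (median -0.96), or the effector cytokines, where 2 of 10 rose and 3 fell (median -0.03). Cytotoxic granule genes rose in 10 of 12 and fell in 0 there, and proliferation genes rose in 22 of 28 and fell in 0. Whether the older WT mice or the kit moved these values was not tested.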

How the data were processed

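The authors deposited UMI counts as 1 matrix of 33006 genes and 26652 cells. The submitters' processing notes name Cell Ranger 3.0.2 and the build mm10. Classes, clusters and sample names per cell are the authors' deposited annotation, and no source used here gives the clustering method. The Scrublet doublet score, the percent of mitochondrial UMIs and the fraction of reads that fell in cells are the authors' deposited values per the file headers. The score reached 0.293 at most among activated cells of these samples, and no cell was removed here by it. The deposited Foxp3 row of the matrix adds GFP in WT and Cre in ∆Foxp3 cells, so it was left out of the tests, and the separate deposited counts were used. Another 44 metadata columns were not used. The metadata name the V3 kit for all cells, and the labels' V2 was followed for the 4 samples. Cells of the 4 samples shared 90 barcodes between libraries, 0 of them in the class.

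UMIs were summed per sample over the class and fitted with edgeR 4.0.16 under R 4.3.3 (TMM, the quasi-likelihood F test, filterByExpr at a minimum of 10 counts, Benjamini-Hochberg adjusted p under 0.05 over all genes tested, no fold threshold). The standard error of a log2 fold change is its size over the square root of F. The interaction used 8 sums with sample, class and class by genotype as terms. DESeq2 1.42.0 served as an alternative. The fits were tested on simulated data. With 2 samples a group an exact permutation test of 1 value cannot go below 0.333, so none is given. Replicate sums differed with a chi-square over its degrees of freedom of 4.29 in ∆Foxp3 and 2.18 in WT sums. A gene with 0 WT UMIs was set against 3 counts over the group, and 1 with 1 to 3 WT UMIs is given as a ratio with an exact 95% interval for counting error. Gene positions and promoters are RefSeq's (GRCm38.p6), matched by symbol for 138 of 142 named genes. Sums used Python 3.11.15 with pandas 2.3.3, numpy 2.4.6 and scipy 1.17.1, and figures matplotlib 3.10.9.

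The class, the 34 gene lists (604 members, of which 585 were found under their symbol, 15 under an older name and 4 not) and the rule for named genes were chosen with earlier results of these data known. Named genes are the 12 highest and 12 lowest fold changes among called genes whose mean was 20 CPM or more and whose groups did not overlap, up to 4 genes a list with the lowest p, and the 5 highest and 5 lowest interactions. A few genes that the rule or a list holds are not reported here, and counts over genes include them. Other members named in the text were chosen after their values were seen, for their known role.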

Additional observations from a re-analysis of the deposited data

Results flagged for a closer look

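The genes looked at were the 12 highest and 12 lowest fold changes and the 5 highest and 5 lowest interactions. Of these, 20 that are reported here had a genotype effect that differed between activated and resting Tconv in edgeR's interaction test (adjusted p under 0.05). The 5 highest and 5 lowest interactions were chosen among genes past this test, so their passing is no result. Over all 8975 genes tested the effect was higher in activated cells for 1.43% and lower for 3.29%. Values here are differences of log2 fold changes, activated minus resting, and the classes share libraries. Among the genes that lead the falls of the activated class, the effect was lower than in resting cells for Dapl1 (-2.65), Slc17a9 (-2.43), Igfbp4 (-2.10), Il6ra (-1.89), Ighm (-1.60), 1700025G04Rik (-1.53), Sesn1 (-1.48), Actn1 (-1.37) and Ctse (-1.25). Cd55 had the opposite sign (1.27), with log2 fold changes of -1.84 in activated and -3.09 in resting cells.

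Effects were higher in activated cells for the interferon-induced membrane genes Ifitm2 (4.12) and Ifitm3 (1.99, from 3.72 in activated and 1.54 in resting cells), and for the interleukin-18 receptor gene Il18r1 (1.76, from 2.06 and 0.16). Klrd1, which encodes the NK receptor chain CD94 (3.0012), and Cdc42ep3, a regulator of the actin skeleton (2.01), differed through resting cells, with log2 fold changes of -0.01 and 0.09 in activated and -3.0 and -2.0 in resting cells.

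Effects were lower in activated cells for Gm4951, an interferon-inducible GTPase gene (-5.44, from 2.61 in activated and 8.14 in resting cells), Plac8 (-4.25, from -0.72 and 3.52), the granzyme gene Gzmk (-3.69, from 0.41 and 4.04), Usp18 (-3.08, from -2.39 and 0.67) and H2-DMa, a chaperone of MHC class II loading (-2.82, from 1.38 and 4.18).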

How the results depend on the processing

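In the activated class 922 genes passed. The count was 1516 with no filter on low counts, 334 with DESeq2, 464 without cells holding markers of another cell type, 503 with thinned cells and 527 to 1084 with 1 sample left out. In single clusters it was 457 in Th1, the largest, 400 in tissue-like, 481 in dividing, 145 in activated 2 and 7 in Tfh cells. Rises were 59.9% of calls, but 46.4% in dividing and 85.7% in Tfh cells. RLE scaling gave 948. In resting cells 1971 genes passed, 1001 with DESeq2 and 457 to 2717 with 1 sample left out. The interaction gave 423, against 150 with DESeq2, 210 with no sample term, 651 with the NKT cluster and 413 to 549 with 1 sample left out. The V3 class gave 1150, against 489 with DESeq2, 758 without marker cells, 374 thinned, 425 with clusters weighted equally and 509 to 1055 with 1 sample left out. Its largest cluster alone was not run, having too few WT cells. The cause of these shifts was not tested. Where 1 sample is left, it is assumed to vary like the other group.

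Replicate letters give no stated pairing, and same-lettered deviations correlated at 0.012 in the V2 class, 0.118 in the V3 class and 0.122 in resting cells, over 2 pairs each. With the letter as a block the counts were 1179, 1669 and 2178.

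Of 111 named genes called, 77 kept their call, wherever they could be tested, under all 15 alternatives that keep more than 1 cluster, as did 20 of the 24 with the largest changes. Reversed values were -0.32 for Cd160 with the NKT cluster, -0.14 for Ifngr1 and -0.27 for Dusp2 in Tfh cells alone, and -0.039 for Bcl2 in dividing cells alone. Over these 15 alternatives and the values as reported, type I interferon genes rose in 2 to 4 and fell in 6 to 17, interferon-γ genes rose in 11 to 20 and fell in 0, and naive genes rose in 0 to 1 and fell in 12 to 21. Without cells with a Foxp3, GFP or Cre UMI, chosen after seeing the data as were the single clusters and the Irf7 cluster, 811 genes passed, of which 757 were among the 922. Depth limits genes below about 10 UMIs, which were not tested.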
